A study of Rattus norvegicus with 24 samples.

Results

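Genes of mitosis and the spindle were followed in cells of the newborn rat testis as they were moved into culture and later given hormones. The set held 44 genes chosen by name, and the deposited expression table listed 43 of them among its 21425 genes. The expression of Ccnb2, a B-type cyclin, was not analysed here, but its promoter window is among those counted below. All 43 passed the filter on low values in the first experiment, and 42 did in the second, where Foxm1 did not.

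The model was seeded with unselected cells from the testes of wild-type (WT) Sprague Dawley rats at postnatal day 5, held in an extracellular matrix gel (Matrigel) in serum-free medium. The baseline experiment used 1 litter and 4 untreated groups of 3 technical replicates: the freshly isolated cells (labelled tissue) and cultures at days 3, 5 and 7. In the induction experiment, cultures of 3 litters were kept for 10 days and sampled before hormone addition (0 h) and 2, 12 and 48 h after luteinizing hormone (LH, 50 mIU/mL) and follicle-stimulating hormone (FSH, 20 mIU/mL) were added with fresh medium. Each of its 12 libraries combined replicate cultures of 1 litter at 1 time. Effects of the hormones, the medium change and the added culture time cannot be told apart, because every library after 0 h had all of them. The p-values of the baseline experiment measure technical spread within 1 litter and not variation between litters.

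Mitosis separates the duplicated chromosomes into a pair of daughter cells. Cyclin-dependent kinase 1 with its A- and B-type cyclins starts it, the spindle checkpoint holds it until every kinetochore is attached, and the anaphase-promoting complex then releases the sister chromatids and removes the cyclins. The messenger RNAs of these proteins are made mainly in late S phase, G2 and mitosis, and they are widely used as markers of proliferation. In the newborn rat testis the Sertoli cells, the spermatogonia and the interstitial cells all divide. In libraries made from many cells, fewer cells of a type and less RNA per cell cannot be told apart.

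Many mitotic genes carry, close to the start of transcription, a cell cycle homology region (CHR, read by the MuvB complex with its B-Myb and FOXM1 partners) and CCAAT boxes (read by NF-Y). Both motifs were looked for in the 250 bases before each start in the RefSeq promoter table of build GRCr8, as TTTGAA or TTCGAA for the CHR and as CCAAT, on both strands. TTCGAA reads the same on both strands, and a base may belong to both motifs. Other spellings were not looked for. A window was found for 37 of the 44 genes (38 windows), and there was none for Ccna2, Aurkb, Incenp, Tpx2, Racgap1, Ube2c and Foxm1. The windows below show 4 genes with both motifs, taken from 4 steps of mitosis (the starting kinase, the activator of the anaphase-promoting complex, a chromosomal passenger and the decatenating topoisomerase), and Bub1, a checkpoint kinase with the largest fall of the set at days 3 and 7 and neither motif. Capitals mark the CHR and CCAAT matches, TTCAAA and ATTGG being the same motifs on the other strand. The windows lie at chr20:19265043-19265292 (plus strand), chr5:137255800-137256049 (minus strand), chr5:142483200-142483449 (minus strand), chr10:84473094-84473343 (minus strand) and chr3:135504922-135505171 (minus strand) of GRCr8, and each is printed 5′ to 3′ in the direction of transcription.
Cdk1: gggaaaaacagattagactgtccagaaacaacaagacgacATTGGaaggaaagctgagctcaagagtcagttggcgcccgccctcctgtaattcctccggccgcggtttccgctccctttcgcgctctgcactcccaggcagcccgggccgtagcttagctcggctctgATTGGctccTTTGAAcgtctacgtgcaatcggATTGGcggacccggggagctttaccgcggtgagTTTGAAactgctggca
Cdc20: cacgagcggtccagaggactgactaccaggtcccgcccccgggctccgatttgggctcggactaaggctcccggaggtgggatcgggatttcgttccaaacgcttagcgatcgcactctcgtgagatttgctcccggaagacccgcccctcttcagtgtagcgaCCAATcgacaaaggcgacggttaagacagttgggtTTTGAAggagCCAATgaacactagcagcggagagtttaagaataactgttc
Cdca8: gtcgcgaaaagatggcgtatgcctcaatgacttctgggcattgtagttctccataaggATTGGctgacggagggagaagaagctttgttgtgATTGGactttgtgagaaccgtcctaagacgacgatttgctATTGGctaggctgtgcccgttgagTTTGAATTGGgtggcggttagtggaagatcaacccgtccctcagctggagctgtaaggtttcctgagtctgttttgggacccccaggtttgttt
Top2a: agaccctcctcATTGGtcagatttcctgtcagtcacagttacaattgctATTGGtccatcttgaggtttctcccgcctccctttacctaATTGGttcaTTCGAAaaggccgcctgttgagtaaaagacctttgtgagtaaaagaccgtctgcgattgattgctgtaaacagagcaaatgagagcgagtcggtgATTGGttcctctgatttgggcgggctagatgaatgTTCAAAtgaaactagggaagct
Bub1: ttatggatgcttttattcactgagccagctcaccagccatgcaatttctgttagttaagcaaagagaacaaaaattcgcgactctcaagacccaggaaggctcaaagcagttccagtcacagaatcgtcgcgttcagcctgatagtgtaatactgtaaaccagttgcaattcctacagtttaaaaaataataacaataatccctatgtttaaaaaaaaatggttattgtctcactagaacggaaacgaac

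The Cdk1 window held 2 CHR matches, at 72 to 67 and at 16 to 11 bases before the start, and 3 CCAAT boxes. In Cdc20 the single CHR match, 51 to 46 bases before the start, lay between 2 CCAAT boxes. The CHR match of Cdca8 shared a base with the last of its 4 CCAAT boxes, and Top2a held 1 match of each CHR spelling and 4 CCAAT boxes. A CHR match was present in 55.3% of the windows of the mitosis and spindle genes, against 12.1% of the 11542 windows of genes tested in the baseline experiment and 17.4% of all 33469 windows in the table. A CCAAT box was present in 73.7%, against 34.9% and 34.0%, and both motifs in 50.0%, against 4.64% and 6.31%. Windows of 36 DNA replication genes, matched for 30 of them, held a CHR in 15.6% and a CCAAT box in 62.5%. These shares describe letters in the windows and were not tested.

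The baseline libraries held 17259939 to 30400440 reads and the induction libraries 15793940 to 28298743, so that 1 read was worth 0.0329 to 0.0633 CPM, the unit of the table, in which each gene's reads are divided by the library total and scaled. The lowest value of any tested gene of the set was 6.21 CPM, for Cdc25c. CPM is not corrected for gene length, so levels were compared between groups, for 1 gene or for the sum of a list, and not between genes. In such a sum the genes with high CPM weigh most, as Top2a (mean 435 CPM in tissue) does in the set. The isolate held the defining transcripts of a testis, with summed levels of 2858 to 2940 CPM over 9 Sertoli cell markers and 279 to 307 CPM over 10 germ cell markers. In the day 3 group, replicate 3 stood apart for part of the set. It had the lowest Cenpf, at 0.494 times the mean of the other replicates, and the highest Birc5, at 1.52 times. Changes below are log2 fold changes of CPM + 1 with their standard error, tested with limma over all genes, and a gene is said to fall or rise where its Benjamini-Hochberg adjusted p was under 0.05.

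The set fell when the isolate was put into culture, and fell further between day 3 and day 7. The summed level of the 43 genes was 5159 ± 309 CPM in tissue, 3168 ± 197 at day 3, 2825 ± 111 at day 5 and 2084 ± 256 at day 7 (SD, n = 3). At day 3, 39 of the 43 genes had fallen and 0 had risen, where 26.8% of all genes tested fell and 29.1% rose. At day 5 the count was 40 (30.3% of all genes fell), and at day 7 it was 43 (31.4%, while 28.5% rose). The median change was -0.75 at day 3, -0.96 at day 5 and -1.35 at day 7, while the median over all genes was 0.016, -0.027 and -0.046. These 3 comparisons share the tissue libraries. Expressed against the tissue mean, the median gene stood at 59.1% at day 3, 51.1% at day 5 and 37.9% at day 7, and 37 of 43 genes were under 50% at day 7. The tissue and day 7 libraries did not overlap for any of the 43 genes, a separation seen in this direction for 37.6% of all genes tested.

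**Figure D1:**
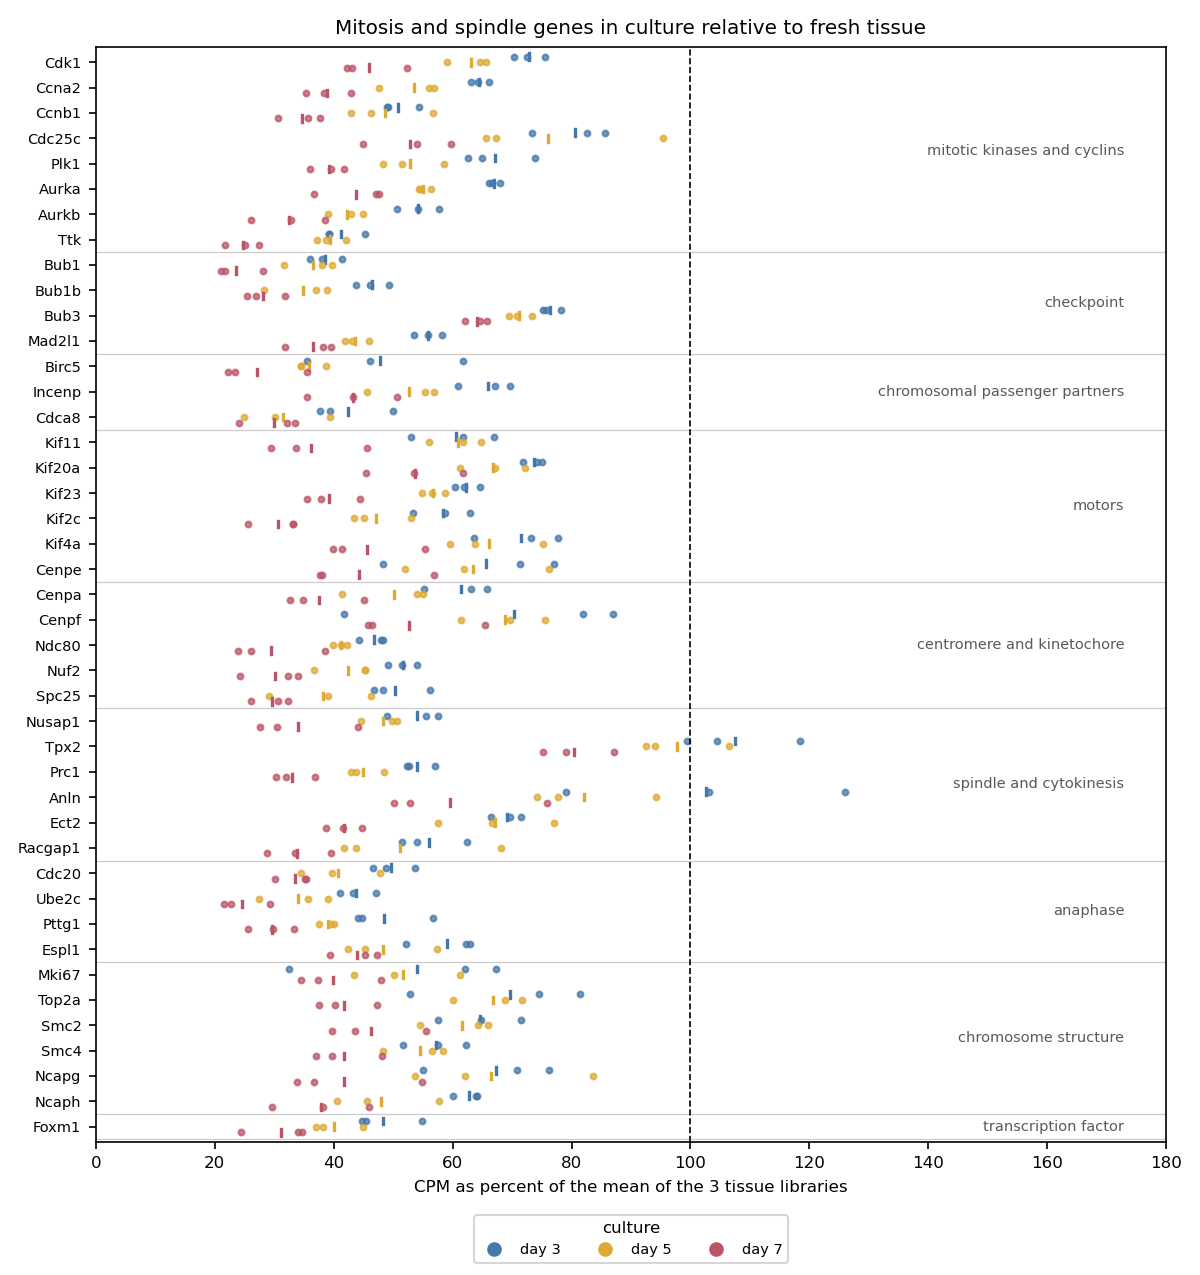
CPM of each gene in each culture library as a percent of its mean over the 3 tissue libraries (horizontal axis), with genes grouped by role on the vertical axis, points for libraries and short bars for group means. At day 7 the means run from 23.6% for Bub1 to 80.6% for Tpx2, and at day 3 the Tpx2 and Anln means lie above 100%.

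Among the mitotic kinases and cyclins, 7 of 8 had fallen at day 3 (median -0.60) and 8 of 8 at day 7 (median -1.34). Cdk1, the kinase that drives entry into mitosis, read 110, 110 and 112 CPM in the tissue replicates and 83.1, 77.4 and 79.7 at day 3. It read 65.0, 71.0 and 72.2 at day 5 and 47.4, 57.6 and 46.5 at day 7. Each of its 4 groups lay apart from the next, and the change was -0.46 ± 0.096 at day 3 (adjusted p = 0.00115) and -1.12 ± 0.096 at day 7 (adjusted p = 4.54e-07). Ccnb1, the B-type cyclin that activates it, read 96.0, 114 and 98.9 CPM in tissue, 50.6, 56.0 and 50.4 at day 3, 47.7, 44.2 and 58.4 at day 5 and 31.6, 38.8 and 36.8 at day 7. Its day 3 and day 5 libraries overlapped, and it had fallen to 50.8% of the tissue mean at day 3 and to 34.6% at day 7.

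Cyclin A2 (Ccna2), which acts in S phase and early mitosis, fell by 0.63 ± 0.099 at day 3 and by 1.35 ± 0.099 at day 7. Plk1, the polo-like kinase of centrosome maturation and mitotic entry, fell by 0.57 ± 0.10 and 1.33 ± 0.10, and Aurka, the spindle pole kinase, by 0.56 ± 0.11 and 1.16 ± 0.11. Ttk, the kinase that starts checkpoint signalling at kinetochores, had the second largest fall of the set at day 3 and the third largest at day 7. It read 89.0, 95.9 and 86.3 CPM in tissue and 22.7, 24.8 and 19.6 at day 7, a change of -1.97 ± 0.11 (adjusted p = 1.05e-08). Cdc25c, the phosphatase that activates Cdk1, was the only gene of this group that did not pass at day 3 (-0.30 ± 0.15, adjusted p = 0.104), although its day 3 libraries (up to 25.7 CPM) all lay under its tissue libraries (29.7 to 30.3 CPM). Its day 5 call (-0.40 ± 0.15, adjusted p = 0.0354) was lost when either of 2 day 5 libraries was left out (adjusted p = 0.135 without replicate 1 and 0.109 without replicate 2), or any 1 of the tissue libraries.

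The spindle checkpoint genes fell in all 4 cases at day 3 (median -0.96) and at day 7 (median -1.61), and they spanned nearly the whole range of the set. Bub1, the checkpoint kinase whose promoter is printed above, read 167, 187 and 172 CPM in tissue and 66.6, 72.5 and 63.1 at day 3. At day 5 it read 66.6, 55.5 and 69.4, and at day 7 38.1, 49.2 and 36.8. The day 3 and day 5 libraries overlapped, and the day 7 libraries lay under both. Its changes of -1.37 ± 0.12 at day 3 (adjusted p = 8.32e-07) and -2.07 ± 0.12 at day 7 (adjusted p = 1.48e-08) were the largest falls of the set at those times. Bub1b, its pseudokinase relative in the mitotic checkpoint complex, fell by 1.81 ± 0.12 at day 7, and Mad2l1, which blocks Cdc20, by 1.42 ± 0.11. Bub3, which carries Bub1 and Bub1b to kinetochores, read 155, 159 and 169 CPM in tissue, at most 126 at day 3 and 106, 99.9 and 104 at day 7. Its groups were tight and did not overlap, and its fall of 0.63 ± 0.076 at day 7 (adjusted p = 1e-05) was the second smallest of the set. The fold changes of Bub1 and Bub3 were not tested against each other.

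**Figure D2:**
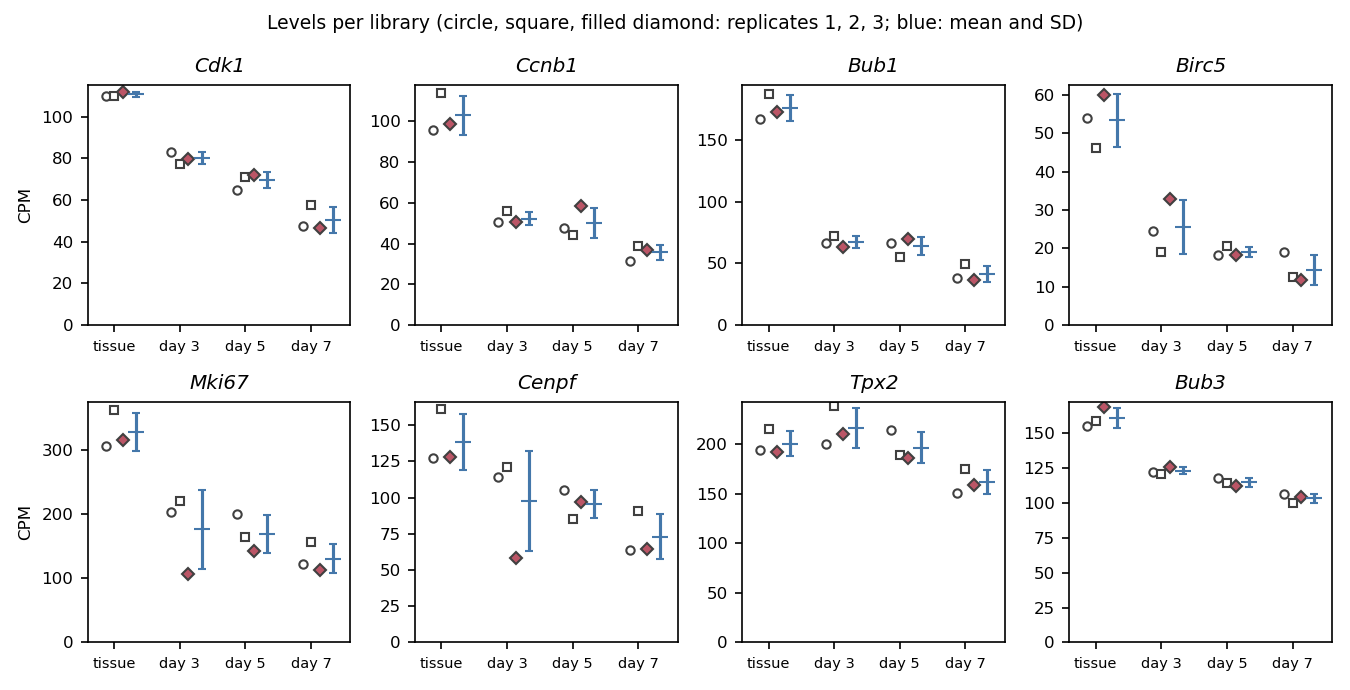
CPM (vertical axes, from 0) of 8 genes in tissue and at days 3, 5 and 7, with circles, squares and filled diamonds for replicates 1, 2 and 3 and blue bars for mean and SD. Bub1 drops most between tissue and day 3, Cdk1 steps down at each time, Tpx2 stays near its tissue level until day 5, and day 3 replicate 3 lies under its group for Mki67 and Cenpf and above it for Birc5.

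The chromosomal passenger complex corrects faulty attachments and later guides cytokinesis. Its kinase Aurkb read 112, 106 and 107 CPM in tissue, 58.5, 54.7 and 62.4 at day 3, 42.2, 48.5 and 46.3 at day 5 and 35.5, 41.7 and 28.1 at day 7, with no overlap between successive groups, and it fell by 1.61 ± 0.13 at day 7 (adjusted p = 1.93e-07). Its 3 partners in the set, Birc5, Incenp and Cdca8, all fell at day 3 (median -1.06) and day 7 (median -1.72). Birc5 (survivin) read 54.0, 46.2 and 59.9 CPM in tissue, a mean of 25.5 at day 3 (lowest 19.0, in replicate 2) and 19.0, 12.5 and 11.9 at day 7. Its day 3 and day 7 libraries met at 19.0 CPM, and it had fallen by 1.06 ± 0.20 at day 3 and by 1.83 ± 0.20 at day 7. Cdca8 (borealin) had the largest fall of the set at day 5, -1.66 ± 0.17 (adjusted p = 2.53e-06), and Incenp, the scaffold, fell by 1.20 ± 0.13 at day 7.

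Of the 6 kinesin motors, 6 had fallen at day 3 (median -0.65) and at day 7 (median -1.26). Kif11, the motor that pushes the spindle poles apart, fell by 0.72 ± 0.15 at day 3 with a change of -1.47 ± 0.15 at day 7. Kif20a, a motor of the central spindle, read 110, 119 and 110 CPM in tissue and 60.5, 69.8 and 51.4 at day 7, a fall of 0.90 ± 0.11. Kif2c, which takes microtubules apart at centromeres, read 57.9, 66.8 and 56.0 CPM in tissue, 35.3, 32.1 and 37.9 at day 3, 26.1, 31.9 and 27.1 at day 5 and 20.0, 20.0 and 15.4 at day 7. It had the largest fall of the set between day 3 and day 7 (-0.90 ± 0.13, adjusted p = 0.00313).

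At the centromere and kinetochore, 4 of 5 genes had fallen at day 3 (median -0.94) and 5 of 5 at day 7 (median -1.69). Ndc80, which holds microtubules, fell by 1.08 ± 0.14 at day 3 and by 1.76 ± 0.14 at day 7, and Cenpa, the histone H3 variant that marks centromeres, by 0.68 ± 0.15 and 1.35 ± 0.15. Cenpf, a large kinetochore protein, was the exception at day 3 (-0.56 ± 0.23, adjusted p = 0.0515) and at day 5 (-0.53 ± 0.23, adjusted p = 0.0618). It passed at day 3 with DESeq2 (adjusted p = 0.0441) and the replicate block (0.034), and at day 5 with DESeq2 (0.0398), the block (0.0414) and only the 2 groups (0.00524). It read 127, 161 and 128 CPM in tissue and at least 114 in 2 day 3 libraries and 58.1 in the other, so that replicate 3 alone lay far under the other day 3 libraries. Without day 3 replicate 1 its change was -0.71 (adjusted p = 0.0344), and without replicate 2 it was -0.75 (adjusted p = 0.0184). At day 7 Cenpf had fallen by 0.93 ± 0.23 (adjusted p = 0.00344).

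The spindle and cytokinesis genes included 2 of the 4 genes that did not pass at day 3. Tpx2, which activates Aurka on spindle microtubules, read 194, 215 and 192 CPM in tissue and 200, 238 and 210 at day 3. At day 5 it read 214, 189 and 186, and at day 7 151, 175 and 159. The tissue, day 3 and day 5 libraries overlapped (0.10 ± 0.098 at day 3, adjusted p = 0.389, and -0.033 ± 0.098 at day 5, adjusted p = 0.791), and the 95% interval of each single change of the set at day 3 lay between -1.63 and 0.41. At day 7 its libraries lay under the tissue libraries, with a fall of 0.31 ± 0.098 (adjusted p = 0.0144), the smallest of the set. That call was lost without tissue replicate 2 (adjusted p = 0.0695) or day 7 replicate 1 (adjusted p = 0.0586).

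Anln (anillin), which organises the contractile ring, read 73.1, 89.6 and 78.0 CPM in tissue, 82.7, 101 and 63.4 at day 3, 75.6, 62.4 and 59.5 at day 5 and 42.4, 60.8 and 40.2 at day 7. Its day 3 libraries lay on both sides of tissue (0.017 ± 0.18, adjusted p = 0.942), it did not pass at day 5 (-0.28 ± 0.18, adjusted p = 0.188), and at day 7 it had fallen by 0.75 ± 0.18 (adjusted p = 0.00261). Prc1, which bundles the microtubules of the central spindle, behaved otherwise: it read 267, 304 and 260 CPM in tissue, 146, 145 and 158 at day 3 and 88.5, 102 and 83.8 at day 7, a fall of 1.59 ± 0.098. Nusap1, Ect2 and Racgap1 had also fallen at day 3 and at day 7. Ect2, the exchange factor that switches on RhoA for cleavage, read 105, 108 and 106 CPM in tissue and 41.1 to 47.4 at day 7.

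The 4 genes of anaphase fell at day 3 (median -1.01) and at day 7 (median -1.63). Cdc20, the activator of the anaphase-promoting complex, read 145, 154 and 148 CPM in tissue and 69.5, 72.8 and 79.9 at day 3, and 52.6, 52.3 and 44.9 at day 7. Its groups lay far apart between tissue and day 3 (49.8% of the tissue mean, adjusted p = 9.63e-06). Ube2c, the ubiquitin-conjugating enzyme of that complex, read 96.5, 90.5 and 109 CPM in tissue and 22.4, 28.9 and 21.2 at day 7, with the second largest fall of the set (-1.99 ± 0.15, adjusted p = 1.07e-07). Pttg1 (securin), which restrains separase until anaphase, fell by 1.71 ± 0.13 at day 7. Espl1 (separase) itself fell by 1.17 ± 0.13.

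The genes of chromosome structure, 6 of 6 fallen at day 3 and at day 7, had medians of -0.65 and -1.26. Mki67, the protein behind the Ki-67 proliferation stain, read 306, 362 and 315 CPM in tissue, 203, 220 and 106 at day 3, 200, 164 and 142 at day 5 and 113 to 157 at day 7. Day 3 replicate 3 was as low as the day 7 libraries. The day 3 change was -0.96 ± 0.23 (adjusted p = 0.00287), and -0.63 (adjusted p = 0.00461) without that library. Top2a, the topoisomerase that untangles chromosomes, fell by 0.54 ± 0.15 at day 3 and by 1.26 ± 0.15 at day 7. Of the condensin subunits that compact them, Smc2 fell by 1.12 ± 0.13 and Smc4 by 1.26 ± 0.12 at day 7. Foxm1, the transcription factor that drives genes of G2 and mitosis, read 91.7, 88.9 and 78.4 CPM in tissue, 38.6, 39.2 and 47.4 at day 3, 31.9 to 38.7 at day 5 and 29.9, 29.4 and 21.1 at day 7. Its fall of 1.03 ± 0.14 at day 3 and of 1.67 ± 0.14 at day 7 (adjusted p = 4.66e-07) lay within the range of the set.

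Between successive culture times the median changes of the set were smaller than that from tissue to day 3. Between day 3 and day 5, limma called 0 of the 43 genes (0.0536% of all genes fell), and edgeR and DESeq2 also called 0. An unadjusted p under 0.05 by limma was seen for 16 genes of the set. The share of all genes under that unadjusted limit was not counted, so the 16 cannot be set against it. The median change was -0.20. Between day 5 and day 7 the median was -0.42, and Ect2 was the single gene called, with 70.7, 61.0 and 81.7 CPM at day 5 (-0.67 ± 0.11, adjusted p = 0.0451; 0.023% of all genes fell). This call was lost without day 5 replicate 1 (adjusted p = 0.154) or replicate 3 (0.063), and without day 7 replicate 1 (0.12) or replicate 3 (0.189). The count was 12 with DESeq2, which called 242 of all 13055 genes tested in either direction. It was 7 without day 7 replicate 2, where the share of all genes is not given here. The count was 0 with edgeR, TMM scaling, the replicate block, no filter or only the 2 groups. The day 7 libraries lay under all day 5 libraries for 26 genes, where 9.71% of all genes did so.

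Between day 3 and day 7, 32 of the 43 genes fell and 0 rose, where 2.44% of all genes fell, and the median was -0.68. After Kif2c the largest falls were those of Ube2c (-0.82 ± 0.15, adjusted p = 0.0077) and Anln (-0.77 ± 0.18, adjusted p = 0.0297). Of these 3, only Anln lost its call when single libraries were left out, with adjusted p of 0.111 without day 3 replicate 1, 0.119 without day 3 replicate 2, 0.108 without day 7 replicate 1 and 0.143 without day 7 replicate 3. The 11 genes that did not pass were Birc5, Ncapg, Cdc25c, Cenpe, Cdca8, Smc2, Smc4, Espl1, Mki67, Cenpf and Bub3, and all had estimates below 0. The count depended on the fit and on single libraries, being 18 with only the 2 groups, 16 without day 3 replicate 1, 20 without day 3 replicate 2 and 14 without day 7 replicate 3. All day 7 libraries lay under all day 3 libraries for 39 genes, against 14.1% of all genes.

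**Figure D3:**
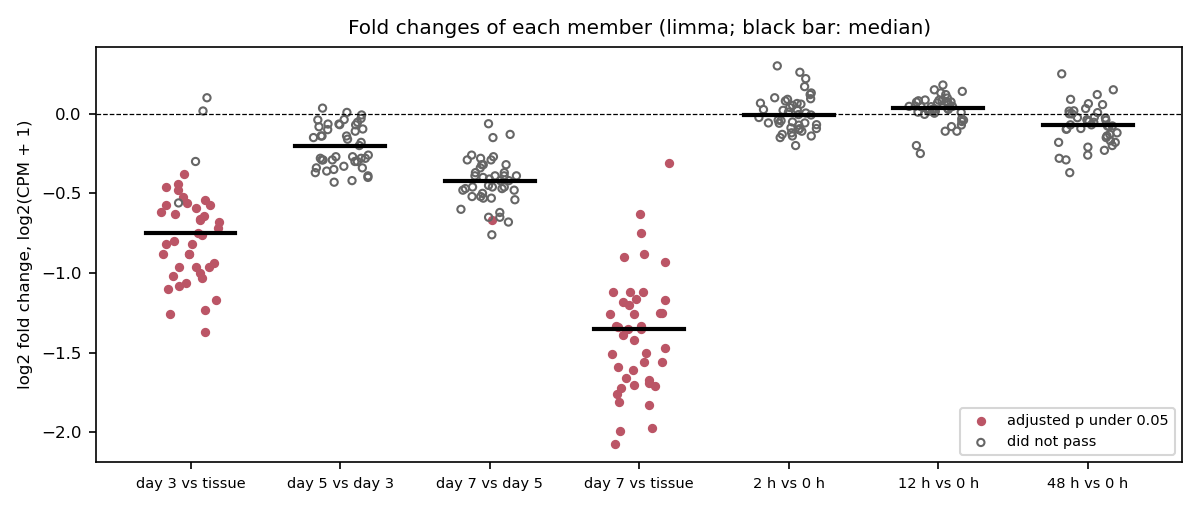
Log2 fold change of CPM + 1 (vertical axis) of each gene in 7 comparisons, with filled points for genes past an adjusted p of 0.05 by limma, open points for the others and black bars for medians. The culture medians against tissue are -0.75 and -1.35, and the medians of the 3 hormone comparisons lie between -0.07 and 0.037.

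Other genes of the cell cycle were taken from lists, with calls counted in the same way. Of 67 further mitosis genes, 65 fell and 1 rose at day 7 against tissue (median -1.28), among them Spc24, a kinetochore subunit, at -2.01 ± 0.31, and Dlgap5, a spindle assembly protein, at -1.93 ± 0.11. The exception was Psrc1 (0.35 ± 0.13, adjusted p = 0.0364), whose call was lost without tissue replicate 1 or 2 or day 7 replicate 1 or 3 (adjusted p of 0.0923, 0.123, 0.0962 and 0.103). All 36 DNA replication genes fell (median -1.46), with Uhrf1 at -1.94 ± 0.14 and Mcm2, a subunit of the replicative helicase, at -1.79 ± 0.088. Of 20 transcription regulators of the cell cycle, 14 fell, led by E2f2, E2f8 and Mybl2, and E2f3 rose (0.82 ± 0.16). Among all genes tested in this comparison 31.4% fell and 28.5% rose, and the lists that follow were not tested against these shares or each other. Of 14 genes of the anaphase-promoting complex, 6 fell and 2 rose (median -0.24), and of 10 cohesin genes 4 fell (median -0.27), with Smc3 at -0.87 ± 0.13. Of 7 G1 cyclins and kinases, 3 fell and 3 rose, and Ccnd1, the cyclin that couples growth signals to cell cycle entry, rose by 0.90 ± 0.19. Of 9 cell cycle inhibitors, 5 fell and 3 rose. Btg2, an immediate-early antiproliferative gene, fell to 27.6 ± 4.71 CPM at day 7 (-4.09 ± 0.13), and Cdkn2b, an inhibitor of the G1 kinases Cdk4 and Cdk6, rose from 9.22 ± 0.549 to 132 ± 53.4 CPM (SD, n = 3). Between day 3 and day 7, 2.44% of all genes fell. In that comparison 28 of the 67 further mitosis genes and 21 of the 36 replication genes fell. The count was 0 for the anaphase-promoting complex and cohesin genes, which in lists this short is near the share of all genes.

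Markers of cell types moved in the same libraries. The summed level of 10 germ cell markers was 279 to 307 CPM in tissue, 19.0 to 36.7 at day 3, 27.9 to 36.8 at day 5 and 20.9 to 34.4 at day 7, with 10 of 10 fallen at day 7 and 0 of them at 0 in any library. That of 6 meiosis markers was 58.2 to 66.8 CPM in tissue and 5.16 to 9.15 at day 7, where Stra8 was at 0 in all 3 libraries. Over 9 Sertoli cell markers the sum was 2858 to 2940 CPM in tissue, 5152 to 5459 at day 3 and 4456 to 4887 at day 7 (5 rose and 1 fell at day 7), and over 6 peritubular myoid markers it was 1336 to 1505 CPM in tissue and 3884 to 4652 at day 7 (5 rose). The sum of 4 mesothelial markers was 0.789 to 1.61 CPM in tissue and 114 to 133 at day 3. Only 2 of these 4 passed the filter. The rise was mainly that of Lrrn4, from a mean of 0.448 to 115 CPM, while Upk1b went from 0.733 to 10.4. The sum of 5 macrophage markers was 46.6 to 57.6 CPM in tissue and 19.1 to 21.3 at day 7. Of these, Tyrobp fell most (from 23.8 to 0.583 CPM), Csf1r and Mrc1 fell too, and Adgre1 rose (from 0.313 to 1.92 CPM). Between day 3 and day 7, where 2.44% of all genes fell, 0 of the 10 germ cell markers were called. In that comparison the Sertoli cell markers Amh (-0.98 ± 0.21) and Inha (-0.55 ± 0.12) and the endothelial marker Cdh5 (-0.86 ± 0.22) fell, and the myoid markers Myh11 (0.95 ± 0.14) and Cnn1 (0.65 ± 0.14) rose. No other Sertoli, endothelial or myoid marker tested was called. The Cdh5 call (adjusted p = 0.0475) was lost with edgeR (0.0619), TMM scaling (0.0615) and no filter (0.0956). Without day 7 replicate 3, Amh, Inha, Cdh5 and Cnn1 lost their calls (adjusted p of 0.0992, 0.101, 0.211 and 0.098). Each was also lost when some other single libraries were left out. The part of these cell types in the fall of the mitosis genes was not tested.

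**Figure D4:**
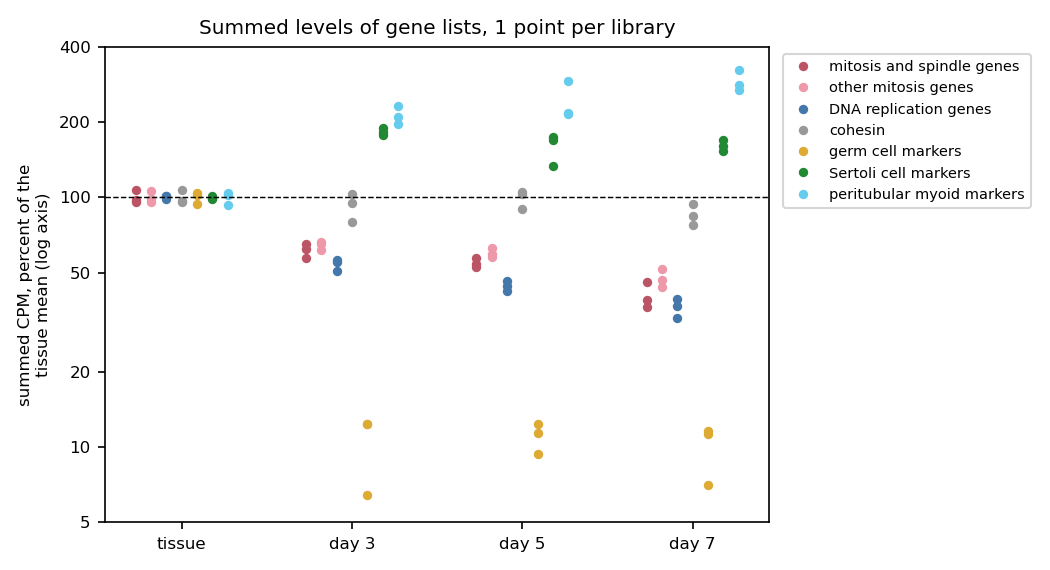
Summed CPM of 7 gene lists in each baseline library, as a percent of the tissue mean (log axis), 1 point per library. The mitosis, further mitosis and replication lists go down with time on average. For the further mitosis list the day 3 (2909 to 3126 CPM) and day 5 (2737 to 2957 CPM) libraries overlap. The germ cell list drops once before day 3 to near 10% and stays there. The cohesin list lies at 1527 to 1848 CPM at day 7 against 1890 to 2109 CPM in tissue, and the Sertoli and myoid lists lie above 100% in culture.

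In the induction experiment no change of the set with time was found. The summed level was 1416 ± 194 CPM at 0 h, 1400 ± 117 at 2 h, 1424 ± 68.6 at 12 h and 1357 ± 221 at 48 h (SD, n = 3 litters). In each of 5 comparisons limma called 0 of the 42 genes, and so did edgeR and DESeq2. At 12 h against 2 h, DESeq2 gave an adjusted p for only 40 of the 42. Of all genes tested, limma without a block called 0.394% at 48 h against 0 h and 0 in the other comparisons. Over all genes DESeq2 called more: 378 at 2 h, 9 at 12 h and 419 at 48 h against 0 h, 397 at 12 h against 2 h and 85 at 48 h against 12 h. The counts by edgeR in the same order were 6, 0, 38, 11 and 0. Unadjusted p-values under 0.05 by limma without a block numbered 0 at 2 h and at 12 h against 0 h, 1 at 48 h against 0 h, 3 at 12 h against 2 h and 1 at 48 h against 12 h. In the limma fit with litter as a block they numbered 2, 1, 4, 6 and 2, in the order of these comparisons. The share of all genes under that unadjusted limit was not counted. The median change was -0.0069 at 2 h, 0.037 at 12 h and -0.07 at 48 h. With litter as a block the median standard error of a change fell from 0.15 to 0.11, the set still gave 0 calls, and of all genes 0.618% were called at 2 h, 4.35% at 48 h and 0% at 12 h against 0 h, 2.96% at 12 h against 2 h and 0.715% at 48 h against 12 h. In that fit the 95% intervals of single genes at 48 h against 0 h reached no further than -0.62 and 0.53.

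Cdk1 read 38.8, 38.3 and 29.0 CPM in litters 1, 2 and 3 at 0 h, 37.6, 37.8 and 31.7 at 2 h, 36.3, 38.7 and 35.8 at 12 h and 37.2, 42.7 and 28.0 at 48 h. Its times overlapped fully (0.016 ± 0.15 at 48 h, adjusted p = 0.98). Ttk had the largest estimate at 48 h. It read 13.2, 14.9 and 13.8 CPM at 0 h, 16.2, 18.1 and 15.1 at 2 h, 14.1, 12.8 and 15.3 at 12 h and 11.5, 11.7 and 8.82 at 48 h, so the 48 h libraries lay under all others, but the change did not pass (-0.37 ± 0.12, adjusted p = 0.245, and 0.0927 with the litter block). Mki67 was the gene with the highest 48 h estimate, at 69.6, 70.6 and 57.5 CPM at 0 h and 93.0, 78.2 and 65.3 at 48 h, which overlapped (0.25 ± 0.13, adjusted p = 0.46).

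Levels differed between the litters at each time, with 1 library per litter and time. Litter 3 had the lowest level for 40 of 42 genes at 0 h, 36 at 2 h and 42 at 48 h, but at 12 h litter 1 was lowest for 29. The genes of the set are not replicates of a litter, and how many of all genes were lowest in these libraries was not counted. Summed levels were 1348 to 1477 CPM in litter 1, 1482 to 1572 in litter 2 and 1114 to 1443 in litter 3. Summed Sertoli cell markers were 3155 to 3621, 3683 to 3942 and 2480 to 3315 CPM in those litters, and summed macrophage markers 47.5 to 112, 14.6 to 24.3 and 24.9 to 130 CPM. The part of these cell types in the litter difference was not tested. Tpx2, the exception in the baseline experiment, was highest in litter 2 at every time, with 117 to 139 CPM, against 97.1 to 101 in litter 1 and 69.3 to 108 in litter 3.

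**Figure D5:**
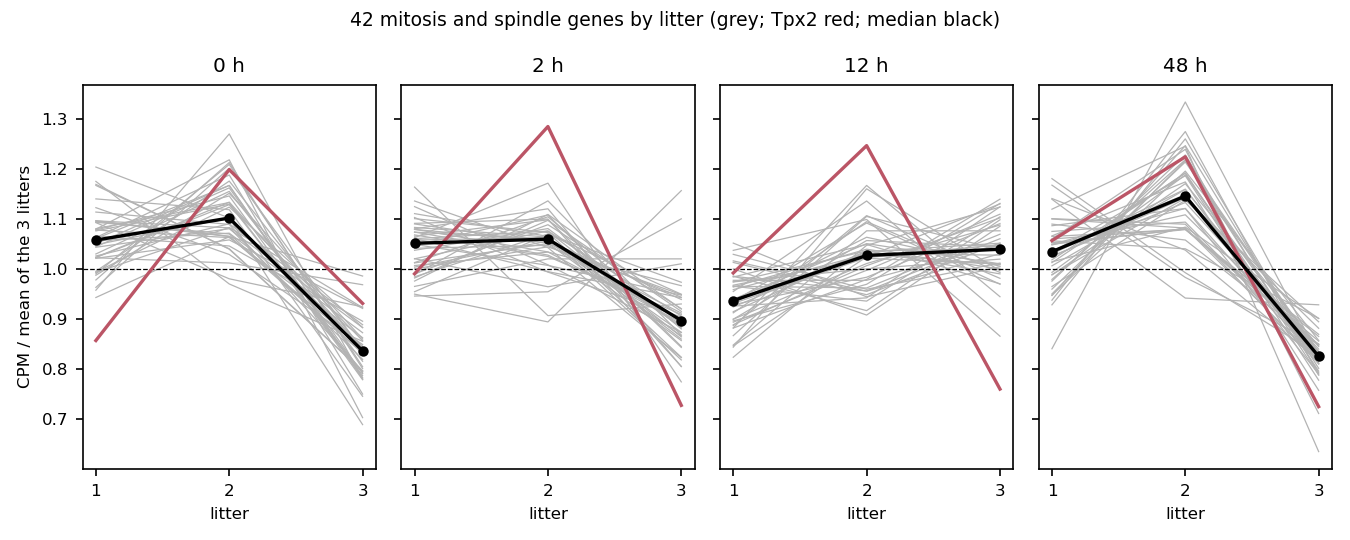
CPM of 42 genes in each litter divided by the mean of the 3 litters (vertical axis), 1 panel per time, with grey lines joining the values of a gene, red for Tpx2 and black for the median. Litter 3 is lowest for 40, 36 and 42 genes at 0, 2 and 48 h but not at 12 h, where litter 1 is lowest for 29, and Tpx2 peaks in litter 2 at each time.

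Levels of some rows differed between the experiments, and the genes were not screened for this. Foxm1, at 21.1 to 91.7 CPM in every baseline library, was at 0 to 0.583 CPM in every induction library, which put it under the filter. The row Ccnb2-ps2, which the table names as a pseudogene of cyclin B2 and which was chosen after its values were seen, read 43.2, 51.3 and 45.4 CPM in tissue and 17.4, 17.6 and 14.9 at day 7, and 0.0633 to 0.335 CPM in the induction libraries. Reads of near-identical copies may be divided between a gene and its pseudogene, so this row is uncertain. Racgap1, also chosen after its values were seen, went the other way, with 13.7 to 18.8 CPM at day 7 and 37.5 to 51.3 CPM in the induction libraries. Levels were not tested between the experiments, which differ in culture time and litters. Whether reads of both experiments were counted with the same annotation is not stated in the sources used here, so the values near 0 of Foxm1 and Ccnb2-ps2 may not measure expression.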

How the data were processed

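Poly-A RNA was copied with random primers into libraries that keep no strand, so overlapping antisense transcripts could not be separated. Reads were aligned with STAR to mRatBN7.2, per the submitters' processing notes, while for the counting tool and the annotation the entry is: not given in the sources used here. CPM values were deposited by the authors, and all 24 columns were mapped to libraries by name. Every value (100%) was a whole multiple of 1 read to within 0.01 read, so reads were recovered, and reads that belong to no listed gene made up 2.93 to 4.71%.

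Each experiment was fitted with limma 3.58.1 (R 4.3.3) on log2(CPM + 1), with group as the term, a trend and all 12 libraries, over genes with at least 1 CPM in at least 3 libraries (13055 and 12450). The 11 comparisons were each adjusted over all genes tested (Benjamini-Hochberg, two-sided). Alternatives were another pseudocount, other filters, TMM scaling, edgeR 4.0.16 and DESeq2 1.42.0 on the recovered reads, a replicate block, fits of 2 groups only and leaving out libraries. At day 7 against tissue edgeR called 7760 genes, DESeq2 7983 and limma 7827. The limma and edgeR fits were also run on simulated counts with planted changes, drawn without litter or replicate structure. Those runs therefore say nothing on differences between litters.

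In the induction experiment the labels give the litters, and 18 pairs of libraries of 1 litter had a median correlation of deviations from group means of 0.482 (-0.0119 to 0.747), 16 above 0.1, so the litters pair the libraries. The text names a fixed panel of genes, the 3 largest falls or rises in a comparison, genes that went against the rest, did not pass where most did or failed the filter, and up to 3 leading genes of other lists with 1 exception. The genes and lists were chosen with earlier results of these data known.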

Additional observations from a re-analysis of the deposited data

How the results depend on the processing

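The counts of fallen genes against tissue (39, 40 and 43 at days 3, 5 and 7) were 36 to 40, 37 to 40 and 42 to 43 when single libraries were left out, and within 1 gene of the original in every other alternative run. At day 3, Cenpe, Ncapg and Kif4a lost their calls without tissue replicate 2, and Cenpe and Ncapg also without day 3 replicate 3. The single fall between day 5 and day 7 became 0 with no filter, with TMM scaling, with edgeR, with the replicate block and with only the 2 groups. The count became 12 with DESeq2, which called 242 of all 13055 genes in either direction. It was 0 to 7 when a library was left out, the 7 being without day 7 replicate 2. The 32 falls between day 3 and day 7 became 18 with only the 2 groups, and 14 to 34 when a library was left out. The cause was not tested. No single-gene estimate changed sign with its call, and 0 genes of the set rose in any alternative. In the induction experiment the set gave 0 calls in every alternative run.

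As for pairing, the labels do not say whether a replicate number of the baseline libraries marks a shared source, and same-numbered libraries did not deviate together throughout (18 pairs, median correlation -0.000715, 5 above 0.1). The library names carry another numbering, by which pairing was not tested. With the replicate block the counts of fallen genes were 40, 41 and 43 against tissue, 0 at day 5 against day 3, 0 at day 7 against day 5 and 30 at day 7 against day 3. With litter as the block, 0 genes of the set passed at any time, and the smallest adjusted p was that of Ttk at 48 h against 0 h (0.0927). Scaling moved the median of all genes by at most 0.063 on the log2 scale. Technical replicates of 1 litter limit the baseline experiment to that litter.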

Other observations

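Changes at day 7 against tissue are given here by promoter letters, as a description over the 36 tested genes with a window. The 20 genes with a CHR match had a median log2 change of -1.30, from -1.83 for Birc5 to -0.63 for Bub3, and the 16 without one had a median of -1.44. The 27 genes with a CCAAT box had a median of -1.33. The 7 genes with neither motif in the window (Aurka, Bub1, Kif2c, Mad2l1, Ncaph, Ndc80 and Nuf2) had a median of -1.66, from -2.07 for Bub1 to -1.16 for Aurka. Spellings of the CHR other than TTTGAA and TTCGAA were not looked for, so such genes may still carry one. Of 71 further mitosis genes, 62 had a window, and 42.9% of their 63 windows held a CHR match.

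Day 7 replicate 2 had the highest level for 33 of the 43 genes and replicate 3 the lowest for 31, with summed levels of 2371 and 1880 CPM. In tissue, replicate 2 was highest for 33 genes, at a summed 5511 CPM against 4935 and 5032. How many of all genes were highest or lowest in these libraries was not counted.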
